A study of Coturnix japonica with 54 samples.

Results

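Proopiomelanocortin (POMC) and the genes of its 2 main processing enzymes, PCSK1 and PCSK2, were examined in pituitary RNA from 54 males of the Japanese quail, Coturnix japonica. They were picked by gene symbol, with earlier results of these data known, and all 3 were present among the 16448 genes of the deposited table. POMC was entered as 2 transcripts, PCSK1 as 1 and PCSK2 as 2. All birds began on a summer-like day of 16 h of light and 8 h of dark. The day was shortened in steps of 2 h to 8 h of light and then lengthened again in the same steps, each lasting 2 weeks. A group's name gives its hours of light, followed by a while days shortened as in autumn and by v while they lengthened as in spring, so that 16La, 14La, 12La, 10La, 8L, 10Lv, 12Lv, 14Lv and 16Lv follow each other in time. Each of the 9 groups held 6 birds, 1 library per bird, picked with the help of body mass, and no age is given. No drug treatment or genetic change is given. Time in the experiment and photoperiod ran together, and no group was held on a constant day length, so these cannot be told apart.

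POMC is a precursor protein made by the corticotrophs of the anterior pituitary. It is cut inside secretory granules at pairs of basic residues. In mammals the convertase encoded by PCSK1 releases adrenocorticotropin (ACTH) and beta-lipotropin, and the convertase encoded by PCSK2 cuts these further into melanocyte-stimulating hormone and beta-endorphin. ACTH drives the release of glucocorticoids from the adrenal gland. Birds have no distinct intermediate lobe, the site where the second type of processing is prominent in mammals. In RefSeq's annotation of the assembly Coturnix japonica 2.1, POMC lies next to EFR3B, PCSK1 between CAST and ELL2, and PCSK2 next to BFSP1, and all 3 are protein-coding. Coordinates are not printed because the build used for the counts is not given in the sources used here.

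Levels are CPM (counts per 1000000 counts), computed from the largest transcript count of each gene in each bird over the library's total of such counts. Library totals ran from 2812 to 77709 (median 20420), and genes detected from 544 to 9753 per library. Mean totals were highest at 12La, 34672 ± 25144, and lowest at 16Lv, where they were 13457 ± 8433 (SD over 6 libraries). A protein-coding locus without a symbol, LOC107307159, took between 12.9% and 54.4% of the counts. Under 2000 genes were detected in 9 libraries, and 7 of these were from the highest-numbered bird of their photoperiod. Of the hormone genes that define the gland, PRL (prolactin) and CGA (the glycoprotein hormone alpha subunit) were detected in 54 of 54 birds, TSHB (the thyrotropin beta subunit) in 42 and FSHB (the follitropin beta subunit) in 39. GH and LHB were not analysed here. Among markers of corticotrophs, NEUROD1, a transcription factor, was seen in 37 birds, AVPR1B, a vasotocin-type receptor, in 35 and CRHR1, the corticotropin-releasing hormone receptor, in 11. Of 4 listed markers of melanotrophs 3 had counts. PAX7, which marks these cells in mammals, had 2 counts in 2 birds, the dopamine receptor gene DRD2 28 in 21 birds and PCSK2 35 in 19. TBX19, the transcription factor that defines corticotrophs, and SCG5 and PCSK1N, which bind the convertases, were not analysed here.

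POMC was detected in all 54 birds, with 28773 counts, and stood at place 6 by mean level among the 1460 genes that passed a filter on low counts, with no correction for transcript length. Its level per bird ran from 1423 to 78947 CPM, with a median of 21084. No difference between photoperiods passed the test, and in 7 of 9 photoperiods the range over the 6 birds was wider than the range of the 9 photoperiod means (19650.0 CPM). Single birds spread more widely than means of 6 birds by construction, so these ranges do not show whether photoperiods differ. They include the libraries with under 2000 genes detected, and the count of 7 was not computed without those. PCSK1 and PCSK2 were at the limit of detection, with 42 counts in 24 birds and 35 counts in 19 birds, and neither passed the filter. Only 1 of the 3 genes could thus be tested in the model across all genes.

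On the first long day, 16La, POMC lay between 16496 and 28571 CPM with a median of 22889. At 14La it lay between 5199 and 17873 CPM with a median of 12141, and 5 of the 6 birds were below every bird at 16La. The range widened at 12La to between 2184 and 44229 CPM, with a median of 17526. At 10La the lowest bird had 2877 CPM, the median was 25698 and the highest bird had 33589. These 3 later ranges of the decline overlap that of 16La. The bird next above the lowest had 11527 CPM at 12La and 18714 CPM at 10La. At 12La the bird next below the highest had 21739 CPM.

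On the shortest day, 8L, the lowest bird had 3166 CPM, the median was 25184 and the highest had 45566. In the spring-like arm the values ran from 3821 to 37763 CPM at 10Lv (median 23606), from 4151 to 32894 at 12Lv (median 21751) and from 6587 to 27665 at 14Lv (median 21237). At 16Lv they ran from 1423 to 78947 CPM, with a median of 30028, which is the widest range of any photoperiod. The highest value there came from the shallowest of the 54 libraries, with 222 POMC counts of 2812.

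**Figure D1:**
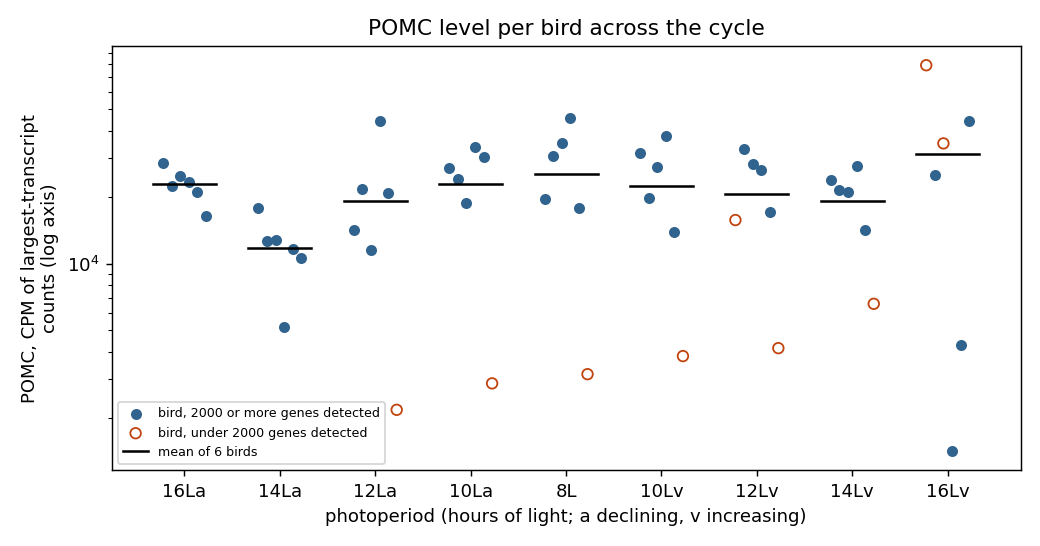
POMC level of each of the 54 birds, in CPM of largest-transcript counts on a log axis, by photoperiod in order of time, with horizontal lines at the means of 6 birds and open circles for libraries with under 2000 genes detected. From 12La to 14Lv the lowest circle of every group is open and lies between 2184 and 6587 CPM, and the 14La birds sit lower as a group than the 16La birds.

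Ordered by mean, POMC was lowest at 14La (11796 ± 4089 CPM), followed by 12La (19122 ± 14199), 14Lv (19126 ± 7570), 12Lv (20761 ± 10493), 10Lv (22422 ± 12409), 16La (22831 ± 4034), 10La (22848 ± 11050.0), 8L (25338 ± 14900) and 16Lv (31446 ± 28651; SD, n = 6 each). Of the 8 gaps between neighbours in this order, 7 were smaller than the lower of the 2 SDs. The exception was the gap of 7326 CPM between 14La and 12La. Neighbours in a sorted order lie close by construction, and the SDs are those of single birds. The gaps thus do not show whether photoperiods differ. In the authors' normalised values, which the file calls CPM, 14La was again lowest at 12990 ± 4977, while the highest mean was at 16La with 23154 ± 5432 and 16Lv stood at 17431 ± 12849 (SD, n = 6 each). The place of 16Lv in the order therefore depends on the scaling, and that of 14La does not between the means of these 2 scales. On the log2 of the authors' values, in a limma fit, 16Lv was lower than 14La. Their log2 fold changes against 16La were -1.07 and -0.93.

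The question of any difference among the 9 photoperiods was asked with edgeR's quasi-likelihood F-test on all genes. POMC had a p of 0.842 (adjusted p = 0.999), in a comparison that called 1.30% of the 1460 genes. Over all 17 comparisons in the fits of all 54 birds, POMC was called in 0 with edgeR, DESeq2 and limma alike. Its unadjusted p was under 0.05 in 0 of them. In edgeR, 0.234% of the 24820 tests of all genes were called, and 4.21% had an unadjusted p under 0.05. Such shares are not given for DESeq2 and limma. In pituitary tissue taken whole, fewer corticotrophs and less POMC RNA in each of them cannot be told apart.

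The end points of the cycle were compared next. At 8L against 16La the POMC log2 fold change was 0.04 ± 0.54 (SE; 95% interval -1.05 to 1.13; edgeR adjusted p = 0.998), where 0.479% of genes were called. For 16Lv against 8L it was -0.17 ± 0.55 (SE; interval -1.27 to 0.92; edgeR adjusted p = 0.991), where 0.205% were called. Back on the same day length, 16Lv against 16La gave -0.14 ± 0.55 (SE; interval -1.23 to 0.96; edgeR adjusted p = 0.974), where 0.0685% were called and the median over all genes was -0.28. The mean CPM was higher at 16Lv, 31446, than at 8L or 16La, so that the means and the fitted changes of both 16Lv comparisons differ in sign, and these signs changed with the scaling. The 3 intervals reach to 0.92 or above and to -1.05 or below, so the values do not show that POMC was alike at the end points.

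Across all photoperiods the POMC slope per hour of light was -0.03 ± 0.05 in log2 units (SE; interval -0.13 to 0.07; edgeR adjusted p = 0.964), in a contrast that called 0.685% of genes. This interval is per hour and cannot be set directly beside those of pairs of photoperiods. The spring slope minus the autumn slope was 0.01 ± 0.07 per hour (SE; interval -0.13 to 0.14; edgeR adjusted p = 0.988), where 0% were called.

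At matched day lengths the spring and autumn arms gave POMC log2 fold changes of -0.10 ± 0.54 at 12 h, 0.36 ± 0.55 at 14 h and -0.08 ± 0.55 at 10 h (SE). The edgeR adjusted p values were 0.999, 0.985 and 0.997, in comparisons that called 0.479%, 0.0685% and 0% of genes. At 12 h the mean CPM was slightly higher in spring, 20761 against 19122, opposite in sign to the fitted change. At 14 h the means were 19126 CPM in spring against 11796 in autumn, with an exact two-sided permutation p of 0.0714 (adjusted p = 0.999 over the genes tested).

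**Figure D2:**
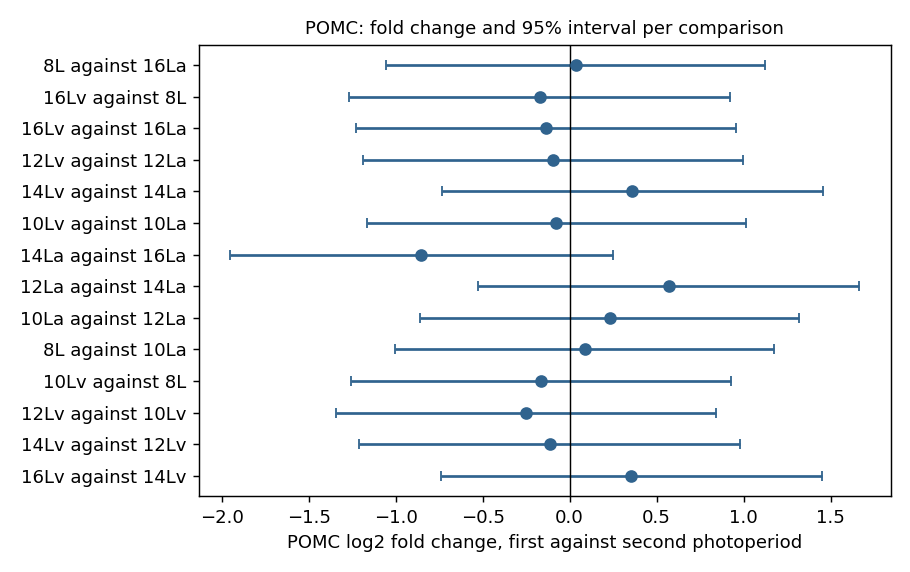
POMC log2 fold change of the first against the second photoperiod named, with 95% intervals from edgeR, for the 3 end-point comparisons, 3 pairs of equal day length and 8 steps in time. All 14 intervals include 0, and that of 14La against 16La, from -1.95 to 0.25, lies furthest to the left.

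Of the 8 successive steps, the first gave the POMC log2 fold change of largest size in the edgeR fit. In mean CPM the last step, from 14Lv to 16Lv, was larger in size, a difference of 12320 CPM beside -11035 for the first, with an exact two-sided permutation p of 0.366. From 16La to 14La the mean went from 22831 ± 4034 to 11796 ± 4089 CPM (SD, n = 6 each), a ratio of 1.94. The exact two-sided permutation test of the 2 means gave p = 0.00433, where the smallest possible p is 0.00216. This was 1 of 42 such tests on the 3 genes, and adjusted over the genes tested its p was 0.903. In the edgeR fit, which takes its spread from all 54 birds, the log2 fold change was -0.85 ± 0.55 (SE; adjusted p = 0.999), and this comparison called 0% of genes. Neither of the 2 groups held a library with under 2000 genes detected. The step was singled out after its values were seen.

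Other values stood beside this step in the same birds. The summed level of 5 measured corticotroph markers, most of which is POMC itself, ran from 16555 to 28850 CPM at 16La and from 5387 to 18373 at 14La. PRL was between 18162 and 67139.5 CPM at 16La and between 25055 and 56630 at 14La. Summed fibroblast markers (4 of 4 measured) ran from 101.2 to 576 CPM at 16La and from 171 to 555 CPM at 14La, and neural markers (4 of 6 measured) from 0 to 133 CPM at 16La and from 27.7 to 85.7 at 14La. Their part in the result was not tested. The step back from 14La to 12La gave 0.57 ± 0.55 (log2 fold change ± SE; edgeR adjusted p = 0.996), where 0.479% of genes were called, and the other 6 steps lay between -0.25 and 0.36.

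POMC varied widely between birds in most photoperiods. Its coefficient of variation within a photoperiod was 17.7% at 16La and 34.7% at 14La, between 39.6% and 74.3% from 12La to 14Lv, and 91.1% at 16Lv. Counting error made up at most 4.77% of the variance in any photoperiod, and the lowest POMC count of any bird was 15, at 12La. The biological coefficient of variation that edgeR fitted for POMC was 0.633, against a median of 0.378 over the 1460 genes. This put POMC at place 1422 counted from the lowest. The fit included the libraries with under 2000 genes detected, and no such value was computed without them. Among the 20 genes with the highest mean level, 3 had a higher value than POMC and the median was 0.474.

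Many of the low values came from the birds with the highest number of their photoperiod, a pattern described after the values were seen. In each of the 6 photoperiods from 12La to 14Lv that bird had the lowest POMC level, between 2184 and 6587 CPM, while the other 30 birds had between 11527 and 45566 and did not overlap with them. The same 6 birds had 544 to 1541 genes detected, against 1567 to 9753 in the other 30. CHGA, the granule protein chromogranin A, was between 885 and 2921 CPM in them and between 6313 and 25815 in the others. LOC107307159 took 34.2% to 54.4% of their counts and 14.2% to 32.9% of the others'. CGA overlapped, with 1033 to 14450 CPM against 844 to 31330. PRL, with 2065 to 9645 against 2984 to 48434, and the peptide processing gene CPE, with 0 to 470 against 207 to 904, did so too. These ranges pool 6 photoperiods, and the summed CGA and FSHB level had a median of 2045 CPM at 12La and 15176 at 12Lv. The overlap thus does not show how these birds stood within their photoperiod. Whether bird number marks a batch is not given in the labels, and the part of library quality in the POMC values was not tested. In the authors' normalised values these 6 birds lay between 2209 and 4751 and the other 30 between 6887 and 49678. Over all 9 photoperiods the highest-numbered bird was the lowest in POMC in 7, and 14La and 16Lv broke the pattern. Their lowest birds, at 5199 and 1423 CPM, were not the highest-numbered and had 4112 and 2297 genes detected. The highest-numbered bird at 16Lv, with 1314 genes detected, had 34986 CPM.

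When the 9 libraries of low detection were left out, the coefficient of variation of POMC fell to between 21.4% and 57.2% in the photoperiods from 12La to 14Lv. It was 106% over the 4 birds left at 16Lv, whose values still ran from 1423 to 43952 CPM. The means were then 22510 ± 12882 CPM at 12La (n = 5), 26843 ± 5742 at 10La (n = 5), 29772 ± 11403 at 8L (n = 5), 26142 ± 9418 at 10Lv (n = 5), 26166 ± 6651 at 12Lv (n = 4), 21634 ± 4947 at 14Lv (n = 5) and 18686 ± 19867 at 16Lv (n = 4; all SD). The mean at 16Lv moved by more than 1.5 times, from 31446 to 18686 CPM. With these libraries left out 14La was still lowest and the highest mean was at 8L, and any difference among photoperiods had an edgeR adjusted p of 1.00 (unadjusted p = 0.315).

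The 2 POMC transcripts, 1 curated and 1 predicted in RefSeq, were seen together in all birds. The curated transcript had 23007 estimated counts and the predicted one 28560, and the predicted one was the larger in 45 of 54 birds. The curated share ran from 28.8% to 53.6% with a median of 44.4%. Photoperiod means of this share lay between 41.5% ± 7.30, at 16La, and 46.9% ± 5.96, at 14Lv (SD over 6 birds), less than 1 SD apart. A read may be entered on both transcripts, so the share is not a ratio of molecules.

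PCSK1 was seen mainly in the autumn-like arm, where libraries were deeper, and in no bird on the shortest day. At 16La 3 birds had 3, 3 and 4 counts and the other 3 had 0. At 14La and at 12La 5 of 6 birds had 1 to 3 counts, giving 9 and 8 counts in all. At 10La 2 birds had 2 counts each, and 4 had 0.

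PCSK1 had 0 counts in each of the 6 birds at 8L, among 120730 counts in all. A count of 0 there allows a level of up to 24.8 CPM for the group (3 counts). At the level of all birds pooled, 32.9 CPM, these libraries would have held 3.97 counts. The exact Poisson 95% interval at 8L reaches 30.6 CPM, below that pooled level, and covers counting error only. On the return there were 3 counts in 3 birds at 10Lv, 2 counts in 2 birds at 12Lv, 4 counts in 2 birds at 14Lv and 2 counts in 2 birds at 16Lv. No bird of this arm had more than 2 counts.

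Pooled over birds, PCSK1 stood at 40.6 CPM in the autumn-like arm (31 counts; exact Poisson 95% interval 27.6 to 57.6) and at 28.05 in the spring-like arm (11 counts; 14.0 to 50.2). These intervals overlap and cover counting error only. The mean level at 16La was 53.9 ± 68.2 CPM (SD, n = 6) against 0 in the 6 birds at 8L, with an exact two-sided permutation p of 0.182 (adjusted p = 1.00 over the 13316 genes with a count in these birds). Only 3 of these birds held a PCSK1 count, all at 16La. No split of them could give a smaller p, so this test could not pass the threshold. In an edgeR fit without the filter, any difference among photoperiods had an adjusted p of 0.758 (unadjusted p = 0.0653), and 8L against 16La had an edgeR adjusted p of 0.723 (unadjusted p = 0.00122). An absence at 8L is thus not shown at this depth.

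PCSK2 had its most counts in the middle and late decline. There were 3 counts in 2 birds at 16La, 5 counts in 3 birds at 14La, 8 counts in 3 birds at 12La and 8 counts in 4 birds at 10La. At 8L 1 bird had 3 counts and the other 5 had 0. The highest count in any bird was 3.

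In the spring-like arm PCSK2 had 3 counts in 3 birds at 10Lv, 2 counts in 2 birds at 12Lv and 3 counts in 1 bird at 16Lv. At 14Lv none of the 6 birds had a count, among 117081 in all. This leaves room for a level of 25.6 CPM in that group by the limit of 3 counts. The exact Poisson 95% interval reaches 31.5 CPM, above the pooled level of 27.4 CPM. At that pooled level 3.21 counts would have been held there. The mean level at 14La was 23.7 ± 29.7 CPM (SD, n = 6) against 0 at 14Lv (exact two-sided permutation p = 0.182, adjusted p = 1.00 over the 13295 genes with a count). Here too only 3 birds held a count, all at 14La, so no split could give a smaller p. The mean was highest at 10La (61.5 ± 57.6 CPM), and 7 of 8 gaps between neighbouring means were under the lower SD. The exception was the gap next to 14Lv, where every count and so the SD was 0. In the edgeR fit without the filter, any difference had an adjusted p of 0.830 (unadjusted p = 0.114).

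**Figure D3:**
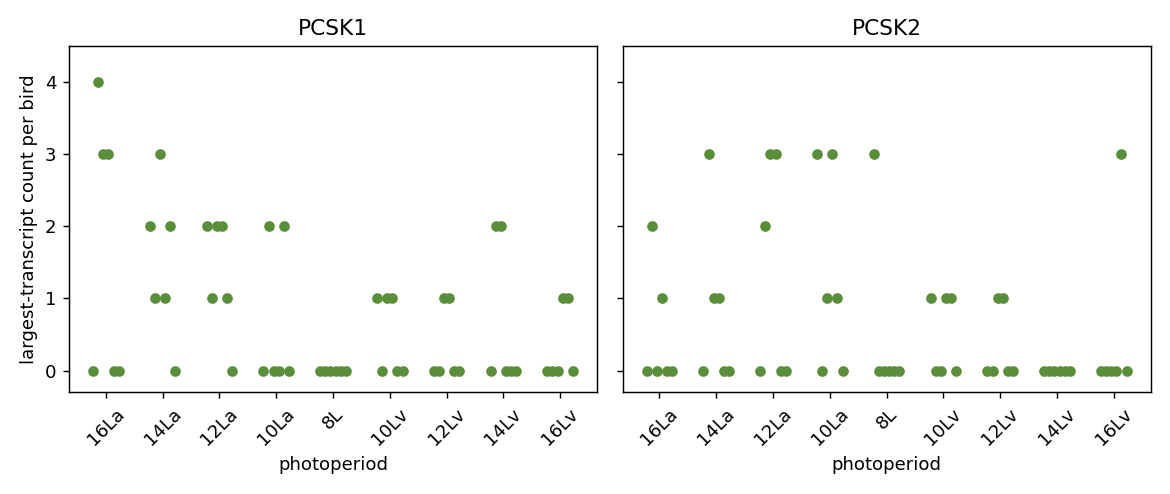
Largest-transcript counts of PCSK1 and of PCSK2 in each of the 54 birds by photoperiod, 1 point per bird, offset sideways so that birds with equal counts stay visible. Counts do not exceed 4, and PCSK1 is at 0 in all 6 birds at 8L and PCSK2 in all 6 birds at 14Lv.

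Detection of both convertases went with library depth. Libraries with a PCSK1 count had a median total of 25828 and those without one of 16376, and for PCSK2 these medians were 25046 and 17672. None of the 9 libraries of low detection held a count of either gene. Both genes were seen in 14 birds (median total 27128), neither in 25 (median total 16325), PCSK1 alone in 10 and PCSK2 alone in 5. The variance expected from counting alone was 46.7% to 149% of the observed variance of PCSK1 over the 8 photoperiods with a count. For PCSK2 this share was 33.3% to 148%. For POMC it was at most 4.77%, and little can be said of bird-to-bird differences in PCSK1 and PCSK2 at this depth.

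Convertase counts were also set against POMC counts, each summed over the birds of a group. Birds with more counts thus weigh more, and 1 bird held 3437 of the 5525 POMC counts at 12La. The number of convertase counts per 1000 POMC counts does not depend on the scaling of libraries. Transcript lengths were not used, so it compares photoperiods and not the 2 genes' abundance. Over all birds it was 1.46 for PCSK1 (exact Poisson 95% interval 1.05 to 1.97) and 1.22 for PCSK2 (0.847 to 1.69). PCSK1 ran from 0 at 8L, which allows up to 0.901 (3 counts), to 3.68 at 14La (1.68 to 6.98), where POMC itself was lowest. These intervals leave out the spread between birds, and no test was made. PCSK2 ran from 0 at 14Lv, which allows up to 1.28 (3 counts), to 2.12 at 10La (0.915 to 4.18). The exact Poisson 95% interval reaches 1.11 for PCSK1 at 8L and 1.57 for PCSK2 at 14Lv. Each of these upper ends lies within that gene's interval over all birds.

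Other genes of peptide processing were measured as a list of 17, of which 14 had counts and 9 were tested. None was called in any of the 17 comparisons by edgeR, where 0.234% of the tests of all genes were called. Of its 153 unadjusted p values 9 (5.88%) were under 0.05, beside 4.21% of those of all genes tested. DESeq2 and limma called 0 with 8 and 12 such values, with no share over all genes to set beside them. The gene with the most counts was CPE, the carboxypeptidase that trims basic residues after the convertases have cut. Its mean lay between 356 ± 243 CPM, at 12Lv, and 512 ± 345 CPM, at 10Lv (SD over 6 birds), and its log2 slope per hour of light was -0.04 ± 0.04 (SE). YWHAE, an adaptor protein of the 14-3-3 family, had a slope of 0.01 ± 0.05, and the proton pump accessory proteins ATP6AP2 and ATP6AP1 had slopes of 0.03 ± 0.05 and -0.05 ± 0.05 (SE). The list's median slope was -0.02, beside -0.01 over all genes tested. From 16La to 14La, where POMC was lower, CPE had a log2 fold change of 0.17 ± 0.36 (SE) and the list a median of -0.17, beside -0.03 over all genes. The largest values of the list at this step were 1.13 ± 0.54 for PAM, which amidates peptides and is named here after its values were seen, and 0.88 ± 0.43 for YWHAE (SE; edgeR adjusted p = 0.999 each, unadjusted p = 0.0374 and 0.0393). The other convertases of the family were sparser than PCSK1 and PCSK2, with 10 counts of FURIN, 18 of PCSK5, 14 of PCSK7 and 2 of PCSK6, named here after their values were seen.

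Of 28 genes that regulate corticotrophs or respond to glucocorticoids, 26 had counts and 7 were tested. None was called by edgeR in any comparison, beside the same 0.234% over all genes. Of 119 unadjusted p values 7 (5.88%) were under 0.05, beside the same 4.21% over all genes. DESeq2 and limma called 0 with 7 such values each, with no share over all genes to set beside them. FKBP4, a cochaperone of steroid receptors, ranged in mean from 75.98 ± 85.7 CPM at 16Lv to 240.02 ± 136 CPM at 8L (SD over 6 birds), and its log2 slope was -0.09 ± 0.05 (SE; edgeR adjusted p = 0.840). The pituitary transcription factor PITX1 had a slope of -0.02 ± 0.07, and NEUROD1, which activates the POMC gene in mammals, had 0.04 ± 0.07 (SE). FKBP5, a glucocorticoid-responsive cochaperone named here after its values were seen, had the lowest adjusted p of the list, with a slope of 0.29 ± 0.09 (SE; edgeR adjusted p = 0.174). The list's median slope was -0.02.

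Receptors and modulators of the melanocortin peptides made from POMC were nearly undetected. Of 9 listed genes 5 had any count and 0 passed the filter. AGRP, an antagonist of melanocortin receptors, had 10 counts in 3 birds, 8 of them in 1 bird at 12La. MRAP2, a receptor accessory protein, had 6 counts, and the receptors MC5R and MC3R had 2 and 1. MC2R, the ACTH receptor, was not analysed here.

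Genes with a pattern like that of POMC were ranked in 2 ways among the 1459 other genes tested. Over the 9 photoperiod means of CPM, the highest Spearman correlations with POMC were those of RASD1, a glucocorticoid-inducible small GTPase in mammals (0.92), HSBP1L1 (0.90), SMARCA2, a chromatin remodelling ATPase (0.87), NDUFAF8, an assembly factor of respiratory complex I (0.87), and LRIG1, a membrane regulator of growth factor receptors (0.85). Over the 1459 genes this correlation ran from -0.93 to 0.92. Between birds, RASD1 had a correlation of 0.36 with POMC, and -0.05 over the 45 birds with 2000 or more genes detected.

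Over the 54 birds, as deviations of log2(CPM + 1) from the photoperiod mean, PRL was most like POMC (Spearman correlation 0.69), followed by RHEX (0.64), C13H5orf24 (0.64), TMBIM6, a membrane protein of the endoplasmic reticulum (0.63), and RGS2, a regulator of G protein signalling (0.62). The median over all genes was 0.26, and 0.08 over those 45 birds. In the 45 birds PRL had 0.64, RHEX 0.48, C13H5orf24 0.37, TMBIM6 0.56 and RGS2 0.40. Birds with more POMC for their photoperiod thus tended to have more PRL. Over the 9 photoperiod means PRL and POMC had -0.52. The order of the POMC means depends in part on the scaling, and this value was not computed without the libraries of low detection. All values of a bird share 1 library and 1 total, and the part of library composition was not tested. In the same birds ACOT9, an abundant acyl-CoA thioesterase gene, had -0.51 and LOC107307159 had -0.47, which were -0.34 and -0.19 over the 45 birds. CHGA had 0.60 and CGA -0.17, which were 0.35 and -0.22 over the 45 birds. PRL had 36000 counts, CHGA 17195 and CGA 12442, while RHEX, C13H5orf24, TMBIM6 and RGS2 had between 163 and 267. The part of counting error in the order of these correlations was not tested.

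**Figure D4:**
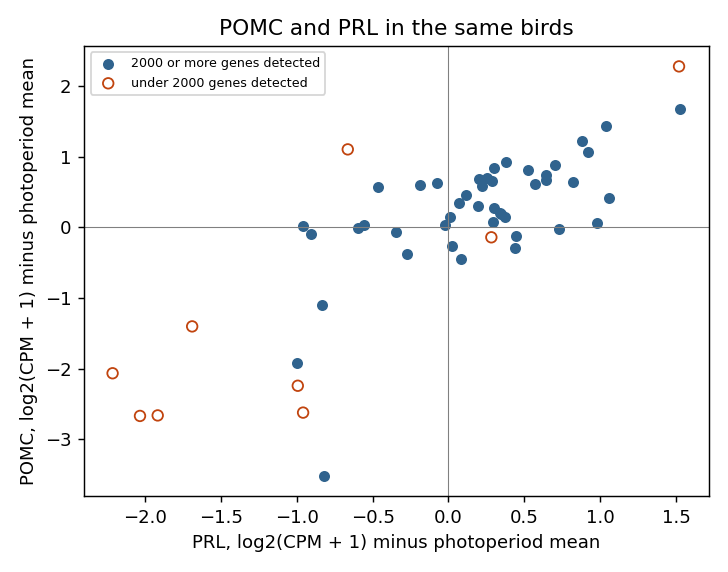
POMC against PRL in 54 birds, both as log2(CPM + 1) minus the mean of the bird's photoperiod, with open circles for the 9 libraries with under 2000 genes detected. The points rise together (Spearman correlation 0.69, and 0.64 without the open circles), and most open circles lie at the lower left.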

How the data were processed

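Polyadenylated RNA of pituitary glands was made into cDNA with an Oxford Nanopore direct cDNA kit and barcoded for long-read sequencing, per the labels' protocols. The deposited table holds estimated counts for 40282 transcripts, and the submitters' processing notes name edgeR 3.24.3, Salmon 0.14.2 and minimap2 2.17, without saying what each did or on which build. The second deposited table is named CPM by the authors, but its columns sum to between 327092 and 1790360, and it was used as a normalised signal. A read may be entered on several transcripts, so the largest transcript count per gene and bird was taken, rounded. Intervals and floors of 3 counts cover counting error only.

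Groups follow the treatment label. All 54 birds were fitted with edgeR 4.0.16 in R 4.3.3 (filterByExpr at a minimum count of 3, then TMM scaling, robust quasi-likelihood F-test, 1 mean per photoperiod, no covariate). Benjamini-Hochberg adjustment covered the 1460 genes tested, with a threshold of 0.05. SE is the log2 fold change over the square root of F. The fit, without the filter step, was also run on simulated data with planted changes larger than any fitted for POMC. That run does not bear on changes of the size seen for POMC. Pairs of photoperiods were also compared in R by exact permutation of the 924 splits of 12 birds. These p values were adjusted over all genes tested, or for PCSK1 and PCSK2 over the genes with a count. Exact Poisson intervals were computed in Python 3.11.15 with scipy 1.17.1. DESeq2 1.42.0 and limma 3.58.1 (log2 of the deposited signal plus 1) served as alternatives. Each library is 1 bird, and the tests set differences against the spread between libraries. Differences between birds and in library quality cannot be told apart in that spread.

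The members, gene lists and tests were chosen with earlier results of these data known. Named genes are the 3 members, up to 4 most abundant members of each list and any called, and the 5 genes with a symbol most like POMC by each measure. One gene that this rule names is not reported here. No sequence is shown.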

Additional observations from a re-analysis of the deposited data

Results flagged for a closer look

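In 3 of the 25 sets of 6 birds with a count, a single bird stood apart from its group by Dixon's criterion (gap over range above 0.625), where chance gives about 1 in 20 for continuous values. With counts this low that rate does not apply, since a single bird with counts among zeros always meets the criterion. PCSK2 at 8L had 169 CPM in 1 bird, from 3 counts, and 0 in the other 5. PCSK2 at 16Lv had 187 CPM in 1 bird, from 3 counts, and 0 in the other 5. PCSK1 at 12La had 130 CPM in its highest bird, from 2 counts in a library of 15343, and the next bird had 44.2 CPM, also from 2 counts. No POMC group had such a bird.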

How the results depend on the processing

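POMC stayed on the same side of the threshold in 664 of 664 repeats of the 10 results. These were 13 other settings (summed transcript counts, no filter, a minimum count of 10, RLE scaling, DESeq2, limma on the deposited signal, the log2 total as a covariate, fits without shallow libraries, without libraries of low detection or without ACOT9 and LOC107307159, the 12 birds alone, exact permutation, and, chosen after seeing the data, leaving out the highest-numbered bird of each photoperiod) and leaving out each of 54 libraries. The lowest adjusted p was 0.310, with limma for 16Lv against 16La (log2 fold change -1.07), and 0.875 with a library left out. Of the 8 results with a direction, 2 kept their sign throughout (the slope on light hours and 14Lv against 14La), and the other 6 changed it in 88 of their 400 repeats, 51 of them for 8L against 16La. For 16Lv against 16La the range over the 13 settings was -1.07 to 0.67. At 14La against 16La POMC lay between -0.95 and -0.79 in the 13 settings (adjusted p from 0.789 to 1.00). The unadjusted edgeR p of this step was 0.0188 in the fit of the 12 birds alone. It was 0.0304 without libraries of low detection and 0.0411 without the highest-numbered birds. The exact permutation test gave 0.00433, and the other fits among the 13 settings gave an unadjusted p above 0.05.

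PCSK1 and PCSK2 entered a fit only without a filter, at counts of at most 4 per library. No paired analysis was possible because bird numbers are unique and link no birds across photoperiods.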
